A study of Mus musculus with 8 samples.

Results

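Double positive thymocytes whose RNA carried the label Valpha2 were compared with double positive thymocytes labelled control, each group on 2 arrays. These are 4 of the 8 arrays of a mouse study whose title names antibodies that engage the T cell receptor (TCR). They were chosen by sample title: the 2 arrays titled Valpha2 against the 2 titled control without the word overnight. Valpha2 names a variable segment of the receptor's alpha chain, and the other 4 arrays are an overnight control and Vbeta5, a variable segment of the beta chain, with 2 arrays each. The labels give the cell type and total RNA for every array. They name no strain, age, receptor transgene, antibody clone or dose, and they give neither antibody nor the control a time in culture. The antibody and any difference in time in culture therefore cannot be told apart in this comparison. Titles number the arrays of each group as data 1 and data 2, called array 1 and array 2 here. The labels do not tell whether arrays 1 and 2 came from different animals or cultures; the p-values then rest only on how far these samples spread, and that spread may be technical.

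A double positive thymocyte carries both coreceptors, CD4 and CD8, and rearranges its alpha chain genes with the RAG recombinase. It descends from dividing precursors, and while the earliest double positive cells still replicate their DNA, most are small and no longer divide. When the receptor of such a cell is engaged, signals through Erk and calcium induce genes such as Egr1, Egr2 and Nr4a1, raise Cd5 and Cd69 and switch off the RAG genes, and the cell is either selected or dies. Genes for DNA synthesis and mitosis are expressed together in cycling cells, many of them under E2F factors and, for the mitotic genes, B-Myb and FoxM1.

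Of 12422 probe sets that are no array controls, 8281 passed a filter on low signal and were tested with limma on log2(signal + 16.6). With Valpha2, 33 of them (0.399%) differed from the control at an adjusted p under 0.05, where p-values were adjusted by Benjamini-Hochberg over all 8281. Of these 30 were lower and 3 were higher, and in all 33 both Valpha2 arrays lay beyond both control arrays. The 30 falls ran from -3.58 to -1.14 on the log2 scale with a median of -1.98, which is 12-fold to 2.2-fold. The falls, 0.362% of the probe sets, belong to 28 named genes and 2 unnamed probe sets: 12 of the genes are in a list of DNA replication genes, 6 in a list of mitosis genes and 10 in neither. The 3 rises, 0.0362% of the probe sets, were Cpt1a, Spg21 and Ctla4. At an unadjusted p under 0.05 there were 358 lower and 261 higher probe sets, 7.47% of those tested. The probe sets nearest the threshold had an adjusted p of 0.0493 inside it and 0.0529 outside it, and 26 lower and 5 higher ones lay between 0.05 and 0.10.

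**Figure D1:**
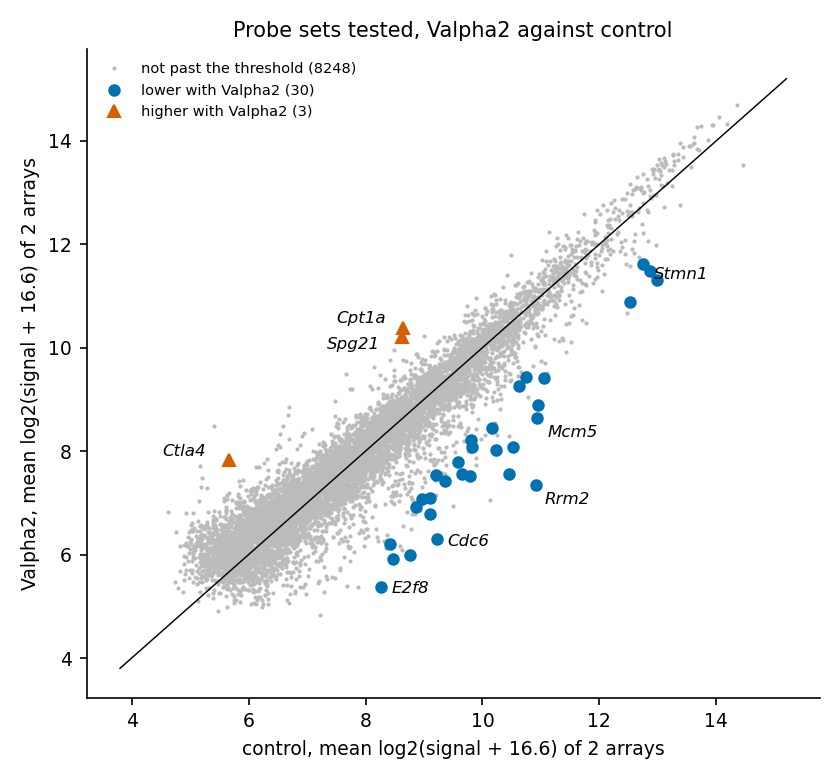
Each point is 1 of the 8281 probe sets tested, with its mean log2(signal + 16.6) over the 2 control arrays on the x axis and over the 2 Valpha2 arrays on the y axis; the line marks equal means. The 30 probe sets that were lower at an adjusted p under 0.05 (circles) lie under the line at mean control signals from 290.5 to 8099, and the 3 that were higher (triangles) lie above it.

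The deepest fall was that of Rrm2, a gene of DNA precursor supply. Rrm2, the small subunit of ribonucleotide reductase (probe set 102001_at), had a signal of 1719 and 2136 on the control arrays and 117 and 179 on the Valpha2 arrays. Both Valpha2 arrays were far below both controls, and the log2 difference was -3.58 ± 0.46 (SE, 2 arrays against 2, limma adjusted p = 0.0201), 12-fold. The large subunit Rrm1 went from 939 and 801 to 126 and 221, a log2 difference of -2.26 ± 0.37 (adjusted p = 0.0402). Thymidine kinase, Tk1, which salvages thymidine, went from 622 and 456 to 59.0 and 145, at -2.31 ± 0.39 (adjusted p = 0.0402). For both genes each Valpha2 array lay below both controls. Dut, another precursor enzyme of the replication list, was at -0.58 ± 0.92 and did not pass (adjusted p = 0.942).

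Falls were also seen in the loading and opening of replication origins. Cdc6, which loads the MCM helicase, had a signal of 534 and 636 on the control arrays and 60 and 63.8 on the Valpha2 arrays, so the replicates of each group lay close together. Its log2 difference was -2.93 ± 0.35 (adjusted p = 0.0201). Mcm5, a helicase subunit (probe set 100156_at), had the smallest adjusted p of the comparison, 0.0161: signals of 1807 and 2101 fell to 364 and 403, a log2 difference of -2.30 ± 0.24. Other subunits had smaller differences that also passed, Mcm3 at -1.70, Mcm4 at -1.58 and Mcm7 at -1.36, each at an adjusted p of 0.0402. Mcm2 (-1.31, adjusted p = 0.0619) and the licensing factor Cdt1 (-1.37, adjusted p = 0.0529) were lower on both Valpha2 arrays than on either control and did not pass. A second, dim probe set of Mcm5 pointed the other way, with 50.3 and 40.1 on the control arrays and 97.7 and 52.7 on the Valpha2 arrays (0.53, adjusted p = 0.915), and a second one of Mcm3 was at -1.63 (adjusted p = 0.239).

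The enzymes that copy and seal the strands were also lower. Pola1, the catalytic subunit of the polymerase that primes synthesis, went from 306 and 343 to 54.5 and 59.0, a log2 difference of -2.22 ± 0.38 (adjusted p = 0.0402). DNA ligase Lig1 went from 592 and 485 to 134 and 108, at -2.01 ± 0.35 (adjusted p = 0.0460). The flap endonuclease Fen1, which trims Okazaki fragments, was at -1.66 and did not pass (adjusted p = 0.0711). Pclaf, a factor bound to the sliding clamp PCNA, went from 1378 and 1381 to 180 and 162, at -2.90 ± 0.38 (adjusted p = 0.0209). Both groups of Pclaf held their arrays within a narrow band, and the groups lay 7.46-fold apart.

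Genes that copy DNA methylation onto the new strand moved with the replication enzymes. Uhrf1, which brings the methyltransferase to newly made DNA, had a signal of 1761 and 1199 on the control arrays and 221 and 296 on the Valpha2 arrays. Its controls differed more than its Valpha2 arrays, and the log2 difference was -2.43 ± 0.35 (adjusted p = 0.0264). Dnmt1, the maintenance methyltransferase itself, went from 1540 and 1860 to 612 and 754, at -1.30 ± 0.22 (adjusted p = 0.0402).

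**Figure D2:**
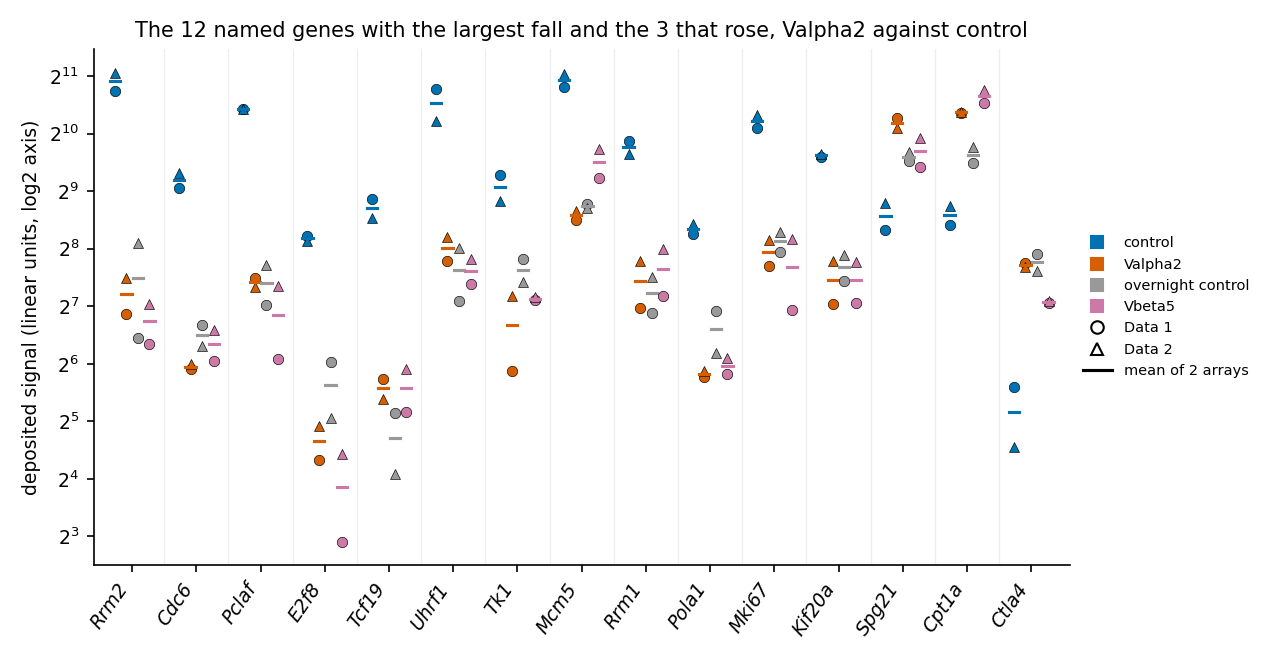
Deposited signal (linear units on a log2 axis) on all 8 arrays for the 12 named genes with the largest fall and the 3 that rose with Valpha2; colours are the 4 groups, circles and triangles are data 1 and data 2, and each bar is the mean of 2 arrays. For the 12 genes that fell, all 6 arrays of the other 3 groups lie below both control arrays, as Rrm2 shows with controls of 1719 and 2136 against Valpha2 at 117 and 179. These genes were chosen for a fall from the same control arrays.

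Because so many genes that are expressed together fell, the bases before their start sites are shown for some of them. The sequences come from a RefSeq table of assembly GRCm38.p6, and this display was chosen after the values were seen. Printed are the 150 bases before the start, on the gene's strand, of the 4 genes with the largest fall whose window overlaps no annotated gene: Rrm2 at chr12:24708104-24708253, Uhrf1 at chr17:56303187-56303336, Rrm1 at chr7:102441545-102441694 and Nt5dc2 at chr14:31130939-31131088, all on the plus strand. Capitals mark every match, on either strand, to 3 sets of letters: CCAAT (the NF-Y box), TTTGAA (the cell cycle homology region, CHR) and 4 forms of the E2F box, TTTCCCGC, TTTCGCGC, TTTGCCGC and TTTGGCGC.

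Rrm2: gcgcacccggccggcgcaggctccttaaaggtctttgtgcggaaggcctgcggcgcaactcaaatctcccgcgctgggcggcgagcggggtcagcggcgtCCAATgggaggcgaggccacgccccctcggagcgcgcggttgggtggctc
Uhrf1: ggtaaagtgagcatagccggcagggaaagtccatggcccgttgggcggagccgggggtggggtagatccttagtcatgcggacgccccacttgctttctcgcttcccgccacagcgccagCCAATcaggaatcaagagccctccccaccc
Rrm1: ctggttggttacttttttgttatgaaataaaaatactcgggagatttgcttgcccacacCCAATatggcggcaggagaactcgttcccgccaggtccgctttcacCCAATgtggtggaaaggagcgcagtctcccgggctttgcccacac
Nt5dc2: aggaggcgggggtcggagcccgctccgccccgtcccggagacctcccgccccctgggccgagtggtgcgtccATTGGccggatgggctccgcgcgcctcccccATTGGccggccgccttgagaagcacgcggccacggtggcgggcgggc

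In these 4 windows only CCAAT was found, once for Rrm2 and Uhrf1 and at 2 places for Rrm1 and Nt5dc2. Over 250 bases before the start, 24 of the 28 genes that fell had 33 windows in the table. CCAAT stood in 24 of the 33 (72.7%), against 34.8% of 6325 windows of genes tested and 33.8% of all 32851. The E2F letters stood in 7 of the 33 (21.2%), against 3.37% and 1.86%; these were windows of Cdc6, Dnmt1, Mcm5, Mcm7, Pola1, Tmpo and Uhrf1. TTTGAA stood in 8 of the 33 (24.2%), against 10.9% and 16.0%. These shares describe letters in a window; no binding was measured, and genes with several windows count more than once.

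Among mitotic genes, Mki67, the Ki-67 protein that coats mitotic chromosomes, had a signal of 1095 and 1289 on the control arrays and 208 and 284 on the Valpha2 arrays, a log2 difference of -2.21 ± 0.37 (adjusted p = 0.0402). Its second, dim probe set had 52.7 and 45.5 against 101 and 55.5, in the other direction (0.49, adjusted p = 0.907). Ccna2, cyclin A2, went from 862 and 918 to 245 and 263, at -1.74 ± 0.28 (adjusted p = 0.0402). Both genes showed control arrays close together and Valpha2 arrays close together at a lower level.

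Plk1, a mitotic kinase, went from 786 and 719 to 172 and 246, at -1.79 ± 0.30 (adjusted p = 0.0402); 2 further probe sets of it were at -2.07 (adjusted p = 0.0604) and -0.49 (adjusted p = 0.854). The kinesins of the spindle also fell, Kif20a from 777 and 805 to 132 and 220 (-2.11, adjusted p = 0.0402) and Kif2c from 448 and 454 to 88.2 and 122 (-1.96, adjusted p = 0.0402). So did the condensin subunit Smc2 (-1.68, adjusted p = 0.0425) and Ect2, the exchange factor that starts cytokinesis (-1.95, adjusted p = 0.0493). Top2a, the topoisomerase that untangles chromosomes, had the lowest fitted difference of the mitosis list. Its signal was 1090 and 1128 on the control arrays and 109 and 124 on the Valpha2 arrays, at -3.08 ± 0.61, and it did not pass (adjusted p = 0.0711). The spread in this fit is pooled over all 4 groups, and the Vbeta5 arrays of Top2a read 16.4 and 157. The checkpoint protein Mad2l1 was at -2.02 with the same adjusted p of 0.0711.

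Other genes that fell include 2 regulators that peak at the start of DNA synthesis. E2f8, an E2F repressor, had a signal of 300 and 281 on the control arrays and 20 and 30.3 on the Valpha2 arrays, at -2.89 ± 0.48 (adjusted p = 0.0402); its second probe set was at -2.09 (adjusted p = 0.0711). Tcf19 went from 466 and 372 to 53 and 42.1, at -2.76 ± 0.43 (adjusted p = 0.0402). On the Valpha2 arrays both genes were near the offset of 16.6 that was added to every signal, so these log2 differences are compressed.

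At the other end were abundant transcripts of the cytoskeleton and the nuclear envelope. Stmn1, stathmin, which destabilises microtubules, went from 6847 and 6925 to 3164 and 3086, the smallest of the 30 falls at -1.14 ± 0.20 (adjusted p = 0.0493). The tubulin genes Tuba1a (-1.63, adjusted p = 0.0264) and Tuba1c (-1.39, adjusted p = 0.0402) passed through probe sets whose suffix, f, marks probes that can read several related genes, so the member is uncertain; a second Tuba1a probe set was at -0.65 (adjusted p = 0.419). Tmpo, a lamina protein, fell by 1.64 on the log2 scale (adjusted p = 0.0244), with further probe sets at -1.92 (adjusted p = 0.089) and -0.15 (adjusted p = 0.983). Tnk2, a tyrosine kinase, went from 2018 and 1905 to 370 and 561 (-2.07, adjusted p = 0.0244), and Nt5dc2 was at -1.90 (adjusted p = 0.0493). The unnamed probe sets were 93237_s_at at -2.56 and 98759_f_at at -1.66.

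Taking 1 probe set per gene, the brightest tested, gave 6095 genes, of which 26 (0.427%) were lower and 3 (0.0492%) higher at the same threshold. E2f8 and Tuba1a drop out of this count, since their brightest probe set did not pass. In the DNA replication list 12 of 37 genes tested were lower and 0 higher, with a median log2 difference of -1.37; 8 further genes of the list had no tested probe set. In the mitosis list 6 of 30 were lower and 0 higher, with a median of -1.67. The median over all 6095 genes was 0.06. Both Valpha2 arrays lay below both controls for 33 of the 37 replication genes and 28 of the 30 mitosis genes, against 17.3% of all genes, and at an unadjusted p under 0.05 there were 30 and 25 lower ones, against 4.66%. Over all 6095 genes 2.95% were higher and 4.66% lower at an unadjusted p under 0.05, and 25.1% had both Valpha2 arrays above both controls; the counts of other lists are to be read against these shares. The members with both Valpha2 arrays above both controls were 1 in each list, named after their values were seen: Orc1, the largest subunit of the origin recognition complex (0.85, adjusted p = 0.692), and the condensin subunit Smc4 (0.70, adjusted p = 0.529).

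**Figure D3:**
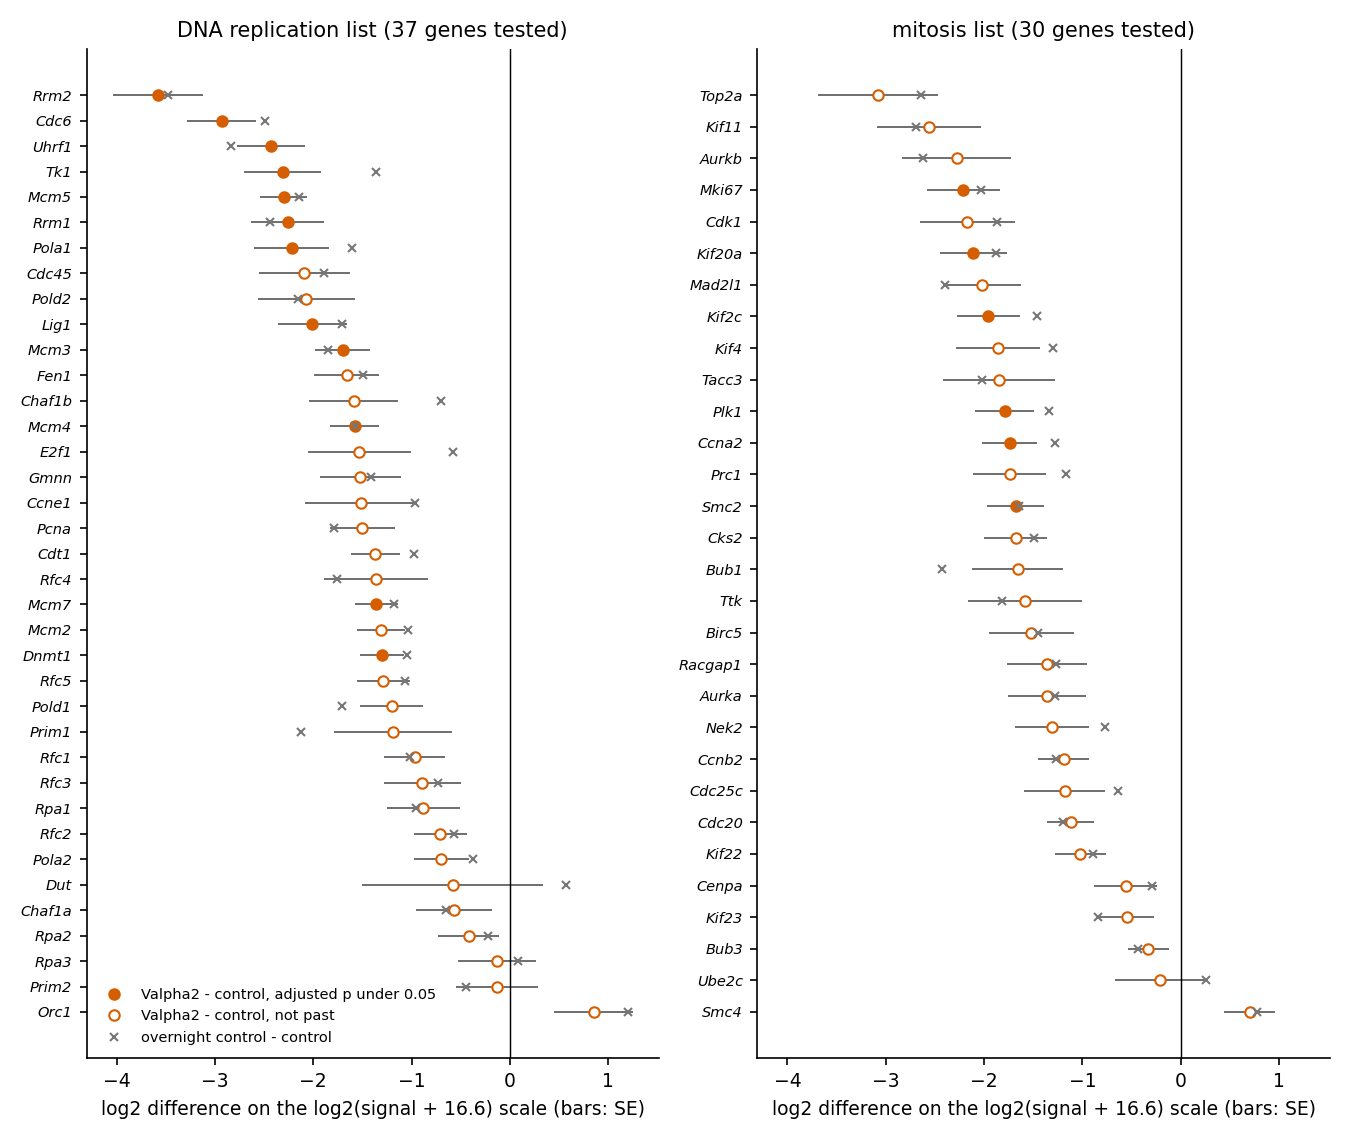
Log2 difference of Valpha2 from the control for every tested gene of the DNA replication list (37) and the mitosis list (30), with bars for 1 SE; filled circles passed an adjusted p of 0.05 and crosses are the overnight control against the same control arrays. The circles lie left of 0 for 36 and 29 genes, from -3.58 (Rrm2) to 0.85 (Orc1) and from -3.08 (Top2a) to 0.70 (Smc4).

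Chromatin genes followed in part. Of 35 histone and chromatin genes 1 passed, Dnmt1, which the replication list also holds, and 18 had both Valpha2 arrays below both controls, against 17.3% of all genes; the median was -0.36. The histone variant H2ax, which also marks DNA breaks, was at -1.16 (adjusted p = 0.117). Of 23 growth arrest and quiescence genes 0 passed by limma; 5 were higher and 1 lower at an unadjusted p under 0.05, against 2.95% and 4.66% of all genes, the median was 0.18, and the cyclin-dependent kinase inhibitor Cdkn2c was at -1.37 (adjusted p = 0.141).

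The rises were few. Cpt1a, the enzyme that commits long-chain fatty acids to import into mitochondria (probe set 93320_at), had a signal of 343 and 426 on the control arrays and 1318 and 1332 on the Valpha2 arrays, a log2 difference of 1.75 ± 0.22 (adjusted p = 0.0201), 3.36-fold. Ctla4, the inhibitory receptor that competes with CD28 (probe set 97718_at), had 48.2 and 23.5 on the control arrays and 215 and 205 on the Valpha2 arrays, at 2.15 ± 0.37 (adjusted p = 0.0402). Spg21, a protein reported to bind CD4, went from 320 and 444 to 1240 and 1098, at 1.59 ± 0.26 (adjusted p = 0.0402). The probe sets of Spg21, E2f8 and Kif20a that passed carry the same f suffix as those of the tubulins. All 3 of the genes that rose had Valpha2 arrays close together and well above both controls. Their passing depended on the scaling. With every array scaled to a common median, 0 probe sets passed as higher and 11 as lower. After quantile normalization these counts were 1 and 12.

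Of the genes just short of the threshold, the cytotoxic granule protease Gzma was at 1.43 and Timp1, an inhibitor of matrix metalloproteinases, at 1.90, both with an adjusted p of 0.0711. The stress gene Gadd45b had 55.5 and 33.6 on the control arrays and 155 and 157 on the Valpha2 arrays, at 1.52 (adjusted p = 0.141), and its second probe set was at 2.12 (adjusted p = 0.0788). The actin-severing protein Gsn was lower, at -1.11 (adjusted p = 0.0645).

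Genes that answer receptor engagement differed among themselves, and their values on the overnight arrays are given further on. Nr4a1, an orphan nuclear receptor induced in thymocytes by receptor signals, had a signal of 159 and 218 on the control arrays and 342 and 1445 on the Valpha2 arrays. Both Valpha2 arrays were higher, array 2 by far, and the log2 difference of 1.84 ± 0.53 did not pass (adjusted p = 0.300). Egr1 had 886 and 1043 on the control arrays and 720 and 934 on the Valpha2 arrays, which overlap (-0.22 ± 0.22, adjusted p = 0.902). Egr2 had 226 and 315 against 280 and 536 and also overlapped (0.51 ± 0.36, adjusted p = 0.847). Id3, an inhibitor of E proteins that Egr factors induce, was at 0.58 ± 0.23 (adjusted p = 0.560). Of 19 immediate early transcription factors tested 0 passed by limma; 2 were higher and 0 lower at an unadjusted p under 0.05, against 2.95% and 4.66% of all genes. Both Valpha2 arrays lay above both controls for 11 of the 19 and below for 1, against 25.1% and 17.3% of all genes, and the median was 0.37.

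The surface proteins Cd5, Cd6 and Cd2 lay lower on both Valpha2 arrays, and by very different amounts. Cd5, which dampens receptor signals, had 2652 and 2803 on the control arrays and 870 and 2240 on the Valpha2 arrays (-0.96 ± 0.41, adjusted p = 0.633). Cd6, its neighbour and relative, had 3541 and 3383 against 762 and 2569 (-1.29 ± 0.46, adjusted p = 0.498), and the adhesion receptor Cd2 had 2263 and 2085 against 434 and 1176 (-1.58 ± 0.38, adjusted p = 0.163). In all 3 genes Valpha2 array 1 was the lowest of the 4 arrays, array 2 lay between it and the controls, and none passed. Dusp6, a phosphatase of Erk, had 470 and 377 against 132 and 147, at -1.49 ± 0.34 (adjusted p = 0.132), with a dim second probe set at 0.76 (adjusted p = 0.850). In the list of 19 receptor-induced surface and feedback genes, Ctla4 was the 1 that passed, and the median was 0.22. Cd69 had no tested probe set. Of 26 genes of the TCR complex and its proximal signalling 0 passed by limma, with 1 higher and 0 lower at an unadjusted p under 0.05 and a median of 0.13. Of 21 maturation genes 0 passed, with 4 higher and 2 lower at an unadjusted p under 0.05, against 2.95% and 4.66% of all genes, and a median of 0.21. Gata3, a factor of the CD4 lineage, was at -0.78 (adjusted p = 0.529).

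**Figure D4:**
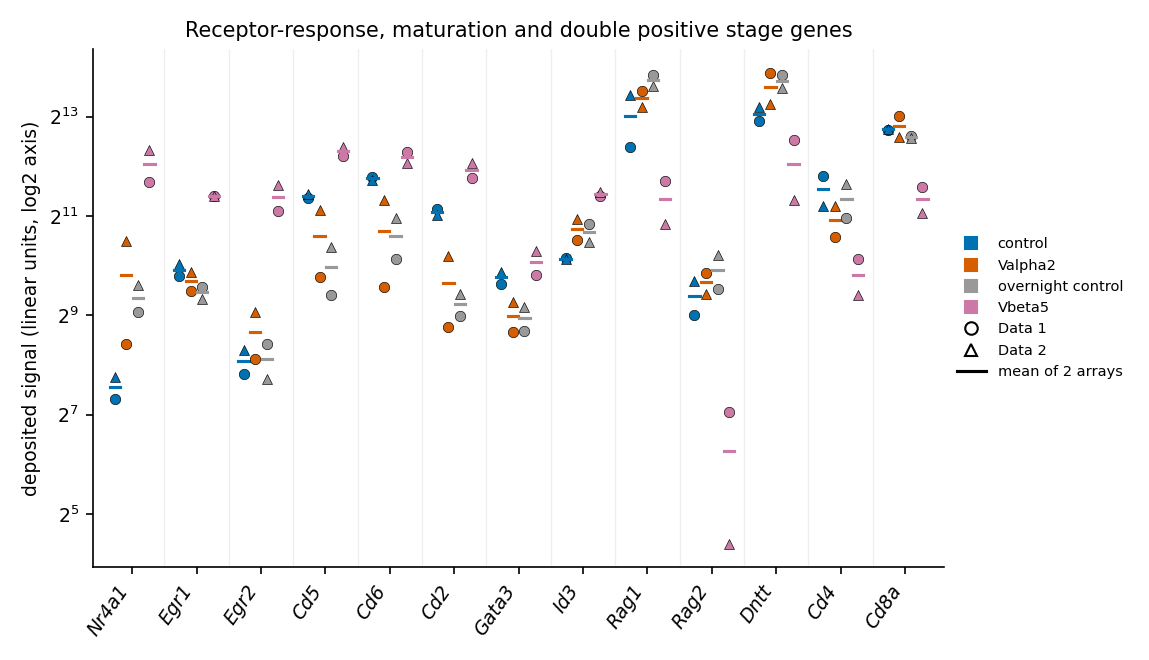
Deposited signal (linear units on a log2 axis) on all 8 arrays for 13 genes of the receptor response, maturation and double positive stage; colours are the 4 groups, circles and triangles are data 1 and data 2, and each bar is the mean of 2 arrays. For Cd5, Cd6 and Cd2 the Valpha2 arrays lie far apart (870 and 2240 for Cd5), and for Egr1, Egr2, Rag1, Rag2, Cd4 and Cd8a they overlap the control arrays.

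Of 24 genes of the double positive stage 0 passed and 0 reached an unadjusted p under 0.05 by limma, and the median was 0.10. Both Valpha2 arrays lay above both controls for 8 of the 24 and below for 1, against 25.1% and 17.3% of all genes. Rag1 had 5383 and 11121 on the control arrays and 11784 and 9392 on the Valpha2 arrays (0.44 ± 0.37, adjusted p = 0.868), and Rag2 had 516 and 827 against 931 and 692 (0.29 ± 0.54, adjusted p = 0.953); both signs turn without control array 1, to -0.08 and -0.04. The coreceptor Cd4 had 3591 and 2362 against 1528 and 2365 (-0.61 ± 0.35, adjusted p = 0.782), and Cd8a had 6780 and 6947 against 8257 and 6138 (0.05 ± 0.24, adjusted p = 0.987). The sign for Cd8a turns under quantile normalization (-0.08), a common median (-0.09) and without Valpha2 array 1 (-0.16). Dntt, the polymerase that adds bases at the joins of receptor genes, had 7682 and 9353 against 15122 and 9788, above both controls (0.52 ± 0.37, adjusted p = 0.847). The coreceptor chain Cd8b1 (0.40, adjusted p = 0.855) and Cd1d1 (0.53, adjusted p = 0.769) also lay above both controls without passing. Scaling every array to a common median, which moves the median of all probe sets by -0.14, turned the list medians of the double positive stage to -0.04 and of the TCR complex to -0.01. The summed signal of 9 defining markers was 40329 and 45672 on the control arrays and 57247 and 45111 on the Valpha2 arrays.

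Of 16 pro-apoptotic and 15 anti-apoptotic genes 0 passed by limma, with 1 higher and 1 lower in each list at an unadjusted p under 0.05 and medians of 0.01 and -0.01, which were -0.13 and -0.15 with a common median and -0.02 and 0.03 after quantile normalization. Among the pro-apoptotic genes 3 lay above both controls and 2 below, and among the anti-apoptotic genes 4 and 3. Bcl2l11, the BH3 protein Bim that kills thymocytes after strong receptor signals, had 882 and 885 on the control arrays and 1640 and 1598 on the Valpha2 arrays. These 4 values do not overlap, but the log2 difference of 0.86 ± 0.27 did not pass (adjusted p = 0.392), and 2 dimmer probe sets of the gene were at 0.42 and -0.38.

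Interferon-response genes had the highest list median, 0.57 over 28 genes tested. Of these 0 passed by limma; 8 were higher and 0 lower at an unadjusted p under 0.05, against 2.95% of all genes higher, and 17 had both Valpha2 arrays above both controls, against 25.1% of all genes. Irf9, the DNA-binding subunit of the factor ISGF3, had 315 and 339 on the control arrays and 927 and 786 on the Valpha2 arrays, at 1.34 ± 0.27 (adjusted p = 0.0828). Tap2, a subunit of the peptide transporter for MHC class I, had 834 and 801 against 1630 and 1493, at 0.92 ± 0.23 (adjusted p = 0.168). The antiviral Rsad2 had 6.4 and 9.9, under the offset of 16.6, against 97.0 and 95.3, at 2.19 ± 0.65 (adjusted p = 0.314). Each of these genes was higher on both Valpha2 arrays, and none passed. The cytosolic ribosomal proteins had a median of 0.40 over 26 genes, with 19 above both controls (25.1% of all genes), 0 past the threshold by limma and 1 higher and 0 lower at an unadjusted p under 0.05; this median was 0.13 after quantile normalization.

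**Figure D5:**
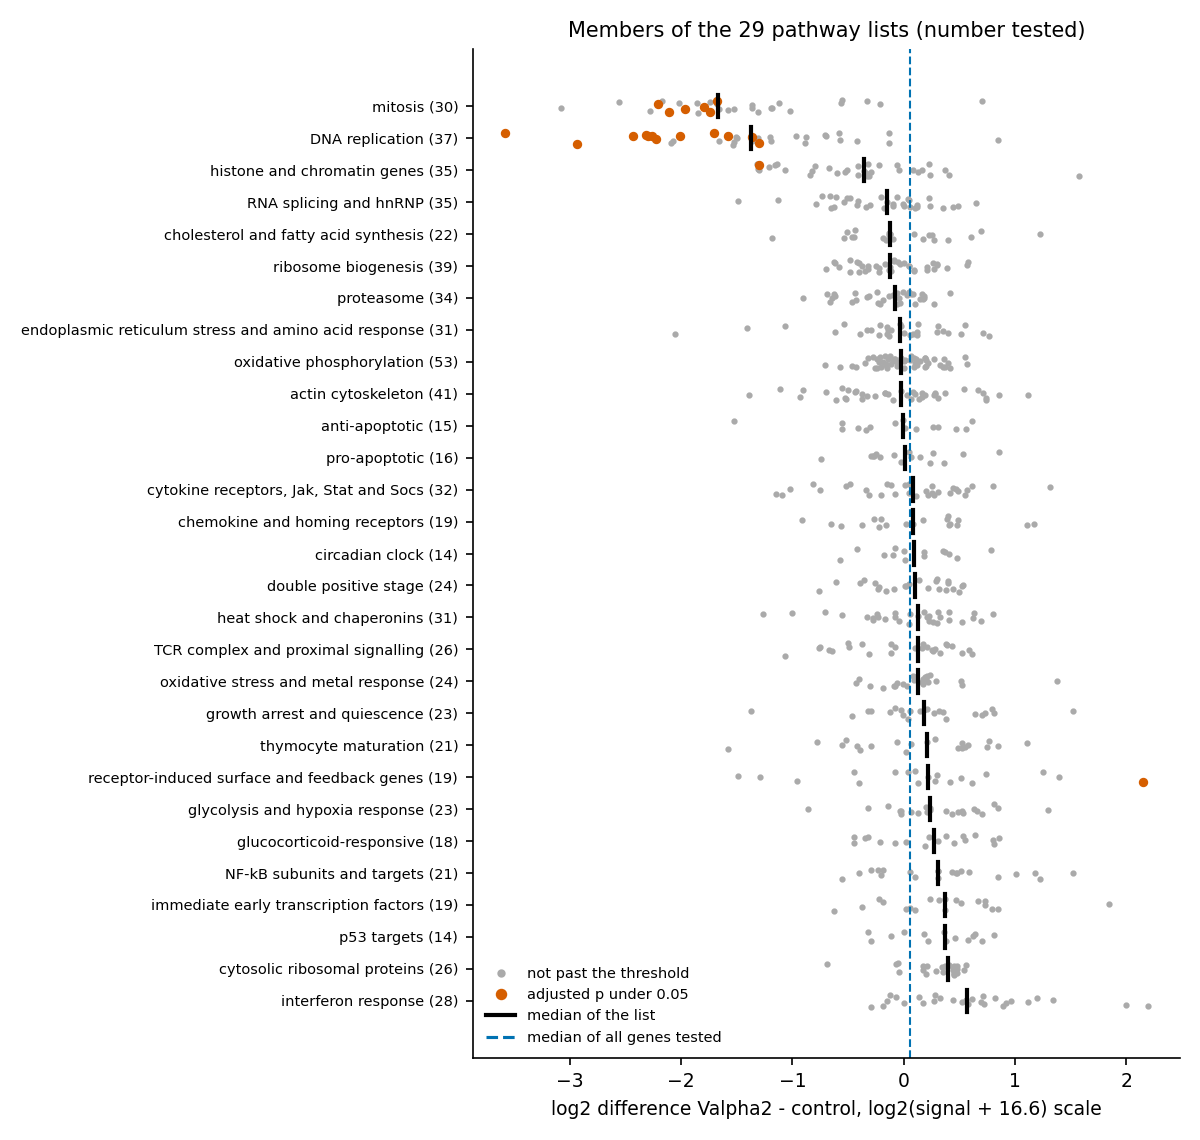
Log2 difference of Valpha2 from the control for each tested member of 29 pathway lists, ordered by list median; black bars are list medians, the dashed line is the median of all 6095 genes (0.06), and orange points passed an adjusted p of 0.05. Mitosis (-1.67) and DNA replication (-1.37) are at one end and the interferon response (0.57) at the other, and the orange points lie in 4 lists.

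Among the 4 arrays compared, Valpha2 array 1 stood apart in RNA quality. On the log2 scale the Gapdh control probes read higher at the 3' end than at the 5' end, a gap that widens as RNA degrades, by 1.72 on Valpha2 array 1, against a difference of -0.26 on array 2 and of -0.09 and -0.28 on the controls. With Valpha2 array 2 alone against control array 2, the 30 lower probe sets ran from -3.46 to -1.11 with a median of -1.79. Array 1 against control array 1 gave -3.70 to -1.11 with a median of -2.12. On all 30 both Valpha2 arrays lay below both controls, so these signs were fixed in advance and are no test of RNA quality. Several marker lists of other cells summed higher on both Valpha2 arrays. Dim signals were higher there as well, with percentile 20 of the signal at 21.9 and 14.6, against 12.5 and 13.0 on the controls. Summed markers of NK and gamma delta T cells, 14 on the array, were 747 and 737 on the controls and 1402 and 1096 on the Valpha2 arrays, B cell markers (16) were 704 and 999 against 1437 and 1176, and markers of dendritic cells and MHC class II (17) were 2711 and 2823 against 3705 and 3254. Granulocyte markers (19) were 615 and 834 against 1152 and 965, and macrophage and monocyte markers (18) were 1786 and 1847 against 2075 and 2160. Quantile normalization lowered the median log2 difference of the NK and gamma delta T cell list from 0.55 to 0.29. That of B cells went from 0.41 to 0.22, of granulocytes from 0.37 to 0.19 and of dendritic cells from 0.2 to 0.07. The median of the macrophage list stayed at 0.05. The groups overlapped for markers of thymic epithelium (15; 1529 and 1857 against 5922 and 1822), of erythroid cells (13; 871 and 582 against 1196 and 545) and of fibroblasts and endothelium (24; 12398 and 10530 against 13715 and 8758). The fibroblast and endothelium list holds Thy1, a thymocyte surface gene, so its sum does not read other cells alone. Of the thymic epithelium sum on Valpha2 array 1, Ctsl made up 4531. None of these markers was listed at 0 on any array, and 0 members of these 8 lists passed by limma. At an unadjusted p under 0.05 there was 1 higher and 0 lower in each list but those of macrophages and erythroid cells, which had 0 of either. The part of RNA quality and of these other cells in the results was not tested. In bulk RNA, fewer cells of a type, here fewer cells in cycle, and less RNA per cell cannot be told apart.

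The overnight control, set against the same control arrays, differed in 15 of 8281 probe sets (0.181%), of which 14 (0.169%) were lower and 1 (0.0121%) was higher. For the 30 probe sets that fell with Valpha2, the overnight control differed from the control by -3.48 to -1.05, with a median of -1.67. On all 30 both overnight arrays and both Vbeta5 arrays lay below both control arrays. Rrm2, for example, read 87.0 and 274 on the overnight arrays and 81.7 and 132 on the Vbeta5 arrays, all far below both controls. The 30 were chosen for a fall from these same control arrays, so this count was favoured by the choice and is not read as a result. Of the receptor-response genes, Nr4a1 read 534 and 778 on the overnight arrays, a log2 difference of 1.71 from the control. The same difference was 0.51 for Id3, -1.5 for Cd5, -1.2 for Cd6, -1.85 for Cd2 and -1.59 for Dusp6. It was -0.44 for Egr1 and 0.01 for Egr2. These comparisons share their control arrays, so the values are given side by side and not as support for each other. Set directly against the overnight control, Valpha2 differed in 0 of 8281 probe sets (0.0%) by limma, with 135 at an unadjusted p under 0.05 (1.63%). The 30 probe sets differed by -0.95 to 0.61 with a median of -0.17. The Gapdh difference between the 3' and 5' ends was 0.95 on overnight array 1 and -0.24 on overnight array 2. The 2 overnight arrays correlated at 0.866, against 0.924 for Valpha2 and 0.955 for the control. The part of this spread in the count of 0 was not tested. Ctla4 read 239 and 196 on the overnight arrays, level with Valpha2 (-0.04), while Cpt1a read 721 and 868, between the control and Valpha2 (0.73, adjusted p = 1.0), and Irf9 read 574 and 405 (0.80, adjusted p = 1.0). Other interferon-response genes were nearer to the overnight control, Rsad2 at 0.12 and Tap2 at 0.02. The interferon list had a median of 0.33 for the overnight control against the control. For Valpha2 against the overnight control its median was 0.24. Nr4a1 was at 0.13 in that comparison, Id3 at 0.07, Cd5 at 0.54, Cd6 at -0.09, Cd2 at 0.27 and Dusp6 at 0.1.

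Vbeta5 differed from Valpha2 in 23 probe sets (0.278%), 8 higher and 15 lower, and in 678 at an unadjusted p under 0.05 (8.19%). None of the 30 probe sets that fell with Valpha2 was among them; these differed between the antibodies by -0.61 to 0.87, with a median of 0.21 and a smallest adjusted p of 0.257. None of the 23 passed for Valpha2 against the control either, where the 8 higher ones lay between -1.58 and 0.77 and the 15 lower ones between -0.34 and 0.81. Among them were Egr1 and Egr2, which read 2720 and 2717 and 2200 and 3141 on the Vbeta5 arrays, above every control and Valpha2 array (both at an adjusted p of 0.0286 against Valpha2). Rag2 was among the lower ones, at 133 and 21.2 on the Vbeta5 arrays (adjusted p = 0.0408 against Valpha2).

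How many probe sets passed depended on the processing. The counts that follow are of all probe sets that passed in a fit, and these need not be among the 33. From the 4 arrays alone, for example, 28 of the 33 were among those that passed. The count of 33 was 13 after quantile normalization, 11 with a common median, 10 with a floor in place of the offset, 10 with no filter on dim probe sets and 0 when eBayes was run without a variance trend; it was 28 with a smaller offset, 34 with the dimmest 50% left out, 52 from the 4 arrays alone and 53 without the 3 antibody and overnight arrays numbered 1. It was 0 without Valpha2 array 1, without control array 1 or without control array 2, and 5 without Valpha2 array 2. All 33 kept their sign in each of these fits, or all 31 that were tested with the dimmest 50% left out. With 1 array left out the sign could not turn, since in all 33 both Valpha2 arrays lay beyond both control arrays. A common median moved the median of all probe sets by -0.14, little beside the smallest of the 33 differences, -1.14. The kept signs are therefore no separate test of direction. A single value tested by exact permutation of 2 arrays against 2 cannot go below p = 0.333.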

How the data were processed

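Total RNA of double positive thymocytes was measured on 8 arrays, 2 in each of 4 groups taken from the sample titles. The authors deposited intensity values of 12488 probe sets per array, normalized per the labels; how they were scaled is not stated in the sources used here. The values are a linear signal with no value below 0, and the mean after trimming 2% at each end was 249.95 to 249.96 on every array. No detection calls were used, so a low signal has no separate background measure; the precision is limited by the number of arrays. The median signal per array was 73.8 to 110.35.

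Control probe sets (66) were left out, signals were put on the scale log2(signal + 16.6), with the offset set at percentile 20 of all positive signals, and the 33.3% of probe sets with the lowest mean signal were not tested. A fold change on this scale understates the change of dim probe sets. Genes were named from the platform annotation updated through RefSeq (GRCm38.p6): 10833 probe sets had 1 symbol, 396 several and 1193 none, and only the first were named. All 8 arrays entered 1 linear model with a mean for each group (limma 3.58.1, R 4.3.3). Its residual degrees of freedom were 4, to which eBayes with a variance trend added 6.32, and p-values were adjusted by Benjamini-Hochberg over 8281 probe sets. The fit was also run on simulated arrays with the same spread for every probe set. That run cannot show how the fit does with unequal spread or an array of poor RNA. Named are up to 12 genes with the largest change each way among those past the threshold without overlap, list members by smallest p (those past the threshold, up to 6, and up to 4 more), and 20 fixed genes. Of the fixed genes 18 had a tested probe set. There were 38 lists, 29 of pathways and 9 of cell markers. The members and lists were chosen with earlier results of these data known. Several probe sets of a gene are given where they disagree. Tried as alternatives were 2 normalizations, 2 offsets, 2 filters, a fit without the trend, a replicate block, a fit of the 4 arrays alone, each array left out in turn, and the 3 antibody and overnight arrays numbered 1 left out together.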

Additional observations from a re-analysis of the deposited data

How the results depend on the processing

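For Valpha2 against the control (33 probe sets), the count was 13 after quantile normalization, 11 with a common median, which shifts the median of all probe sets by -0.14, 10 with a floor, 10 with no filter, 0 without the variance trend, 52 from the 4 arrays alone, and 53 without the 3 antibody and overnight arrays numbered 1. It was 28 with a smaller offset of 8.3 and 34 with the dimmest 50% left out. Each count is of all probe sets that passed, and these need not be among the 33. From the 4 arrays alone 28 of the 33 passed. Leaving out 1 array at a time gave 0 to 5. For the overnight control against the control (15), it was 0 without the trend, 31 from the 4 arrays alone and 69 without the 3 arrays numbered 1, and 0 to 120 with 1 array left out. For Valpha2 against the overnight control (0), it was 0 to 1 with 1 array left out and 0 in every other fit. For Vbeta5 against Valpha2 (23), it was 0 with a common median, 0 without the trend, 0 from the 4 arrays alone and 41 without the 3 arrays numbered 1, and 0 to 21 with 1 array left out. The cause was not tested. With the data number as a replicate block, the counts were 89 (all 33 among them), 99, 0 and 90; the deviations of same-numbered arrays from their group means correlated at 0.105 to 0.345, but what the number marks is not stated. Of the genes named, Rag1 ran from -0.08 without control array 1 to 0.96 and Rag2 from -0.04 to 0.62. Cd8a turned to -0.08 after quantile normalization, -0.09 with a common median and -0.16 without the 3 arrays numbered 1, and ran from -0.16 without Valpha2 array 1 to 0.27.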

Other observations

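Metabolic and stress genes outside the comparisons above held a few large differences that did not pass. Psat1, an enzyme of serine synthesis, had a signal of 610 and 540 on the control arrays and 60.2 and 250 on the Valpha2 arrays, a log2 difference of -2.05 ± 0.47 (limma adjusted p = 0.141). Mthfd2, a mitochondrial enzyme of one-carbon metabolism, had 635 and 539 against 128 and 336 (-1.41, adjusted p = 0.308), and the mitochondrial chaperonin Hspd1 had 2063 and 2011 against 515 and 1372 (-1.26, adjusted p = 0.560). In all 3 genes Valpha2 array 1, the array with the Gapdh ratio of 1.72, was the lower one. Ctsl, a lysosomal protease, stood apart on that array alone, at 4531, against 687 on Valpha2 array 2 and 821 and 849 on the controls.

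As lists, 31 genes of endoplasmic reticulum stress and the amino acid response had a median of -0.03, 31 heat shock and chaperonin genes 0.13 (-0.01 with a common median), 53 oxidative phosphorylation genes -0.02, 34 proteasome genes -0.08 and 23 glycolysis and hypoxia genes 0.24. In each of these lists 0 genes passed by limma; at an unadjusted p under 0.05 the higher and lower genes were 1 and 3, 1 and 2, 1 and 1, 0 and 2, and 3 and 0, in the same order, against 2.95% and 4.66% of all genes.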
